A study of Mus musculus with 8 samples.

Results

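Phosphofructokinase and the enzymes that set its main activator were followed here through 6 genes: the catalytic isoforms Pfkp, Pfkl and Pfkm, and the bifunctional regulators Pfkfb2, Pfkfb3 and Pfkfb4. They are 6 of 24369 gene symbols in the deposited count table, and all 6 were among the 11394 genes that passed a filter on low counts. The set was chosen by the measured levels of Pfkp and Pfkl in these libraries, which differ between groups in unlike ways. The levels of Pfkp and Pfkl are therefore given as a description, with no test, and tests are given for the other 4 genes. The libraries came from dendritic cells isolated by fluorescence-activated sorting from MC38-EGFP tumours in wild-type mice. The MC38 line derives from a mouse colon carcinoma and here carried enhanced green fluorescent protein (EGFP), so that EGFP marks a dendritic cell that holds material of the tumour. There were 4 groups of 2 libraries: EGFP-positive cDC1, EGFP-negative cDC1, EGFP-positive cDC2 and EGFP-negative cDC2. cDC1 and cDC2 are the main subsets of conventional dendritic cells, best known for cross-presentation to CD8 T cells and for priming CD4 T cells. All 8 libraries shared the wild-type genotype and the tumour. The labels name the cell type as colon cancer, whereas the titles and the study's design text name the dendritic cell subsets, which are used here. They give no age, no treatment and no word on whether each replicate had its own animal, and every p-value therefore measures the spread between these libraries, which may be technical.

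Phosphofructokinase phosphorylates fructose 6-phosphate and so commits sugar to glycolysis. The enzyme is a tetramer of subunits encoded by Pfkp (platelet type), Pfkl (liver type) and Pfkm (muscle type), which can mix and which differ in their response to metabolites. The Pfkfb enzymes each carry a kinase and a phosphatase that make and remove fructose 2,6-bisphosphate, the strongest activator of phosphofructokinase. Pfkfb3 leans furthest towards the kinase. Pfkfb3 and Pfkfb4 are textbook targets of HIF-1, the factor stabilised in low oxygen, and dendritic cells are known to raise glycolysis when they are activated.

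The sequences just before RefSeq transcription starts of Pfkp, Pfkl and the 2 better-expressed regulators are shown. The core letters of the HIF-1 binding element can thus be read in place. Each run is the 250 bases upstream of a RefSeq start in GRCm38.p6, 5′ to 3′ on the gene's strand, and capitals mark ACGTG or GCGTG, with CACGTG where that palindrome, which holds ACGTG on each strand, occurs.
Pfkp, chr13:6648772-6649021, minus strand: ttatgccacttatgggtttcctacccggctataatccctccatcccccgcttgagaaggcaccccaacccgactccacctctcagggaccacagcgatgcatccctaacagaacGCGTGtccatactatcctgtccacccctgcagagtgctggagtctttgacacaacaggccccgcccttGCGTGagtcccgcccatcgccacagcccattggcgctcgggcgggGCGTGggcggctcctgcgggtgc
Pfkl, chr10:78009808-78010057, minus strand: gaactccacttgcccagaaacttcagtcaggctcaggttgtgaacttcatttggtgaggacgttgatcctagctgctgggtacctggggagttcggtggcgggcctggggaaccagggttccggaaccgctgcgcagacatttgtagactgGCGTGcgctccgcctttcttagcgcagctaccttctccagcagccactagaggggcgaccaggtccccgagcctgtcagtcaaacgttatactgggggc
Pfkfb3, upstream start, chr2:11553930-11554179, minus strand: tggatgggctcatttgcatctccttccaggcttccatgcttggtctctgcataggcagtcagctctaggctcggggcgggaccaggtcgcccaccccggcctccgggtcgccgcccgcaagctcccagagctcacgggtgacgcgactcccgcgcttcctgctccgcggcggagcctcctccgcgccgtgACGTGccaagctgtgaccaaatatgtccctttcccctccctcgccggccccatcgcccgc
Pfkfb3, downstream start, chr2:11502091-11502340, minus strand: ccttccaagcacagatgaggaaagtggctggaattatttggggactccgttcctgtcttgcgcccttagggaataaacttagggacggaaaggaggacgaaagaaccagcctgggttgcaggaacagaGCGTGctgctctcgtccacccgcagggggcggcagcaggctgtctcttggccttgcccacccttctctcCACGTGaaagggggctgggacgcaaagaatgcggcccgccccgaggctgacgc
Pfkfb4, chr9:108991652-108991901, plus strand: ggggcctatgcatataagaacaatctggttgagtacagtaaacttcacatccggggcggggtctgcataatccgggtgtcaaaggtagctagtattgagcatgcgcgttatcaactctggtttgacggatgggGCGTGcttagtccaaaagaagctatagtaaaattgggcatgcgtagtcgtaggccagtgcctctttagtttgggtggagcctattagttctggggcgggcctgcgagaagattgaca
The Pfkp window held GCGTG at 3 places, 136, 68 and 23 bases before the start. The Pfkl window held 1 GCGTG, 99 bases before the start, and the Pfkfb4 window 1 GCGTG, 117 bases before the start. At Pfkfb3 the upstream start had 1 ACGTG, 60 bases away, and the downstream start had the palindrome and 1 GCGTG, 122 bases away. Searched on both strands of 32851 windows of this length, ACGTG was present in 16.6%, GCGTG in 28.2% and either of them in 38.6%, so a single match is common among promoters. The GC box letters GGGCGG were held by 32.7% of windows. They occurred 4 times before Pfkp, 2 times before Pfkfb4, 2 times before each Pfkfb3 start and 0 times before Pfkl. The gene spans of GENCODE M21 begin further upstream than these RefSeq starts for Pfkl (at 78010083), Pfkfb3 (at 11554077) and Pfkfb4 (at 108991778). The matches listed for Pfkl, Pfkfb3 and Pfkfb4 therefore lie within the annotated genes. All of these are matches of letters and no factor binding was measured.

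Read depth was even, with 17869441 to 22195681 counts a library, of which the ribosomal RNA precursor Rn45s took 19.4% to 35.6%. The 2 EGFP-positive cDC1 libraries stood apart from the rest: 8208 and 8553 genes were detected in them, against 9602 to 11922 in the other libraries, and their replicates correlated at 0.629 (Pearson, log2 of CPM plus 1, across genes) against 0.850, 0.875 and 0.898 in the other groups. In this group 23.3% of the genes with at least 100 counts in either replicate had 0 in the other, against 2.51% to 7.49% elsewhere. Summed levels of 9 cDC1 markers were 1876 and 2830 CPM in EGFP-positive cDC1 and 3895 and 3482 CPM in EGFP-negative cDC1, against 139 to 406 CPM in the cDC2 libraries. The 7 cDC2 markers summed to 32.9 to 396 CPM in cDC1 libraries and to 894 to 946 CPM in cDC2 libraries. Of these, Sirpa, Klf4 and Itgam were higher in every cDC2 library, but Irf4, Cd209a, Clec10a and Mgl2 overlapped between the subsets. Mgl2 was highest in EGFP-negative cDC1 replicate 2, at 220 CPM. Of 6 genes shared by conventional dendritic cells, Flt3 and Zbtb46 were near 0 in the cDC2 gate, at 0 to 10.8 CPM and 0 to 1.04 CPM, while Itgax was at 51.9 to 82.6 CPM there. All 6, most of whose level came from the antigen presentation genes H2-Aa, H2-Ab1 and Cd74, summed to 46664 and 63394 CPM in EGFP-positive cDC1, 69444 and 68902 CPM in EGFP-negative cDC1, and 13091 to 34140 CPM in the cDC2 libraries. The 16 macrophage and monocyte markers summed to 523 and 13470 CPM in EGFP-positive cDC1, 2389 and 3533 CPM in EGFP-negative cDC1, 50305 and 28499 CPM in EGFP-positive cDC2 and 57648 and 47289 CPM in EGFP-negative cDC2. Counts from bulk samples cannot tell fewer cells of a type from less RNA per cell.

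Pfkp lies at chr13:6579768-6648777 on the minus strand (GRCm38, as all gene positions here). Its level, in TMM-scaled CPM (counts divided by the scaled library total), was 435 and 485 in EGFP-positive cDC1, 599 and 586 in EGFP-negative cDC1, 71.0 and 76.4 in EGFP-positive cDC2 and 200 and 173 in EGFP-negative cDC2. Every cDC1 library lay above every cDC2 library, and within each subset both EGFP-positive libraries lay below both EGFP-negative ones. The 4 groups therefore did not overlap and fell into a fixed order, with EGFP-positive cDC1 below EGFP-negative cDC1, EGFP-negative cDC2 next and EGFP-positive cDC2 at the bottom. The log2 fold change for EGFP was -0.37 ± 0.26 (SE, edgeR) in cDC1 and -1.34 ± 0.27 in cDC2. Set against cDC2, cDC1 had a log2 fold change of 2.64 ± 0.28 among EGFP-positive cells and 1.67 ± 0.27 among EGFP-negative cells. The exons of Pfkp share 748 bp with Pitrm1 on the other strand, and whether strand was used in counting is not stated, so some reads cannot be assigned with certainty; Pitrm1 itself was at 5.05 to 31.3 CPM.

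Pfkl (chr10:77986947-78010083, minus strand) had another order. Its level was 184 and 188 CPM in EGFP-positive cDC1, 24.6 and 29.3 CPM in EGFP-negative cDC1, 76.5 and 56.6 CPM in EGFP-positive cDC2 and 109 and 123 CPM in EGFP-negative cDC2. EGFP-positive cDC1 was the highest group and EGFP-negative cDC1 the lowest, with both cDC2 groups between them and no overlap between any of the 4. The log2 fold change for EGFP was 2.79 ± 0.35 (SE, edgeR) in cDC1, a ratio of mean CPM of 6.91, and -0.80 ± 0.33 in cDC2, a ratio of 0.575. Between subsets the fold change was 1.48 ± 0.33 among EGFP-positive cells and -2.10 ± 0.34 among EGFP-negative cells. The comparisons of EGFP in cDC1 and of subset among EGFP-negative cells share the EGFP-negative cDC1 libraries, where Pfkl was lowest. Across the 8 libraries the levels of Pfkp and Pfkl were nearly unrelated (Pearson r -0.13 on log2 of CPM plus 1).

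**Figure D1:**
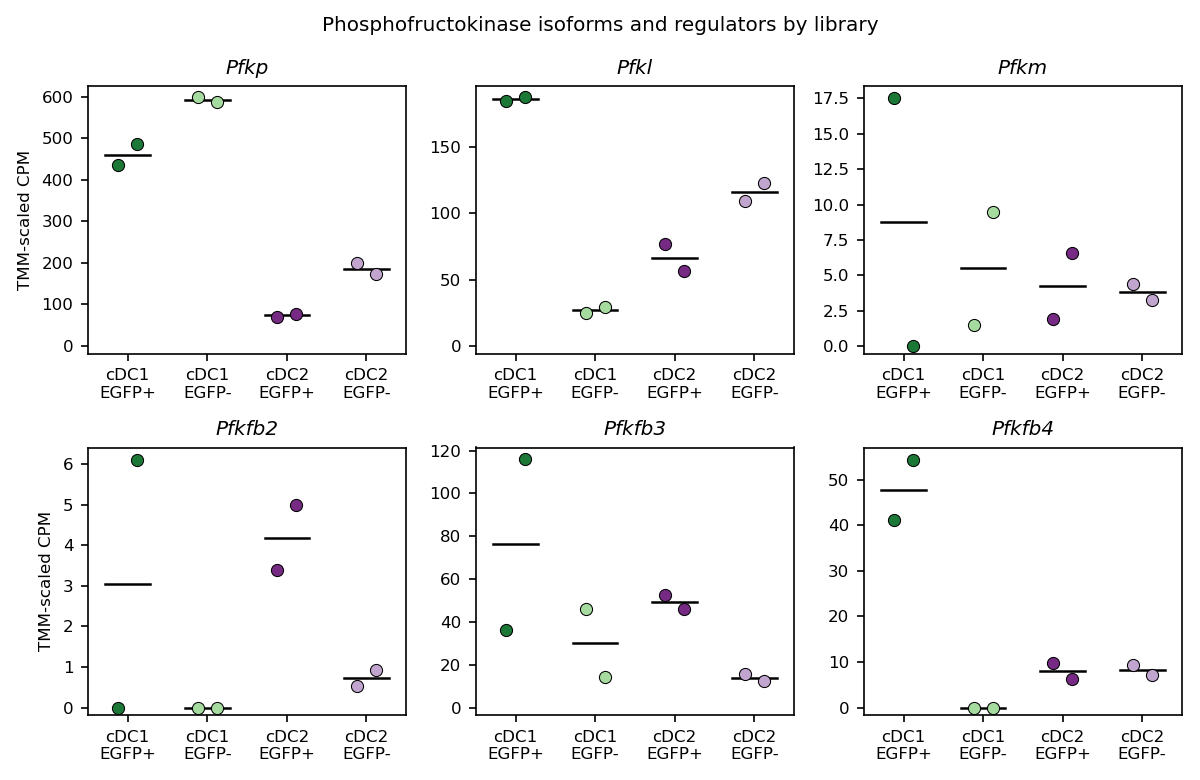
TMM-scaled CPM of the 6 genes in each of the 8 libraries, 1 point a library with a line at the mean of the 2 libraries of a group; each panel has its own linear scale from 0. Pfkp runs from 435 to 599 CPM in the cDC1 groups and from 71.0 to 200 CPM in the cDC2 groups, while Pfkl and Pfkfb4 are highest in EGFP-positive cDC1 and lowest in EGFP-negative cDC1.

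Pfkm (chr15:98092589-98132451, plus strand), the muscle isoform, was scarce and uneven. It had 17.5 and 0 CPM in EGFP-positive cDC1, 1.5 and 9.51 CPM in EGFP-negative cDC1, 1.93 and 6.59 CPM in EGFP-positive cDC2 and 4.37 and 3.25 CPM in EGFP-negative cDC2. The range within EGFP-positive cDC1, from 400 counts in one replicate to 0 in the other, covered every other library. No comparison of Pfkm passed the test, with log2 fold changes for EGFP of 0.67 ± 2.44 in cDC1 (edgeR quasi-likelihood test, Benjamini-Hochberg adjusted p = 0.976) and 0.16 ± 2.43 in cDC2 (adjusted p = 1). Errors of this size leave differences of several fold undetectable.

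In cDC1 the mix of isoforms differed with EGFP while their summed CPM, not scaled by length, was alike. Per kb of exon the cDC1 sums were not alike, at 65.3 and 64.3 with EGFP and 48.8 and 51.0 without. In cDC2 the sum differed on both scales. The summed CPM of Pfkp, Pfkl and Pfkm was 637 and 673 in EGFP-positive cDC1 and 625 and 625 in EGFP-negative cDC1. In cDC2 the sum was 149 and 140 CPM in EGFP-positive cells and 313 and 299 CPM in EGFP-negative cells. The ratio of Pfkl to Pfkp counts was 0.423 and 0.387 in EGFP-positive cDC1 and 0.0410 and 0.0499 in EGFP-negative cDC1; it was 1.08 and 0.741 in EGFP-positive cDC2 and 0.545 and 0.709 in EGFP-negative cDC2. The lowest of these ratios thus belonged to the EGFP-negative cDC1 libraries, and in cDC2 both EGFP-positive libraries lay above both EGFP-negative ones.

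Levels of different genes can be compared only per length. On the scale of CPM per kb of exon, the 3 isoforms summed to 65.3 and 64.3 in EGFP-positive cDC1 and 48.8 and 51.0 in EGFP-negative cDC1, and to 17.3 and 16.2 in EGFP-positive cDC2 and 32.5 and 32.2 in EGFP-negative cDC2. Pfkp made up 53.0% ± 4.65 of this sum in EGFP-positive cDC1 and 88.7% ± 4.05 in EGFP-negative cDC1 (SD, n = 2 each). In cDC2 its share was 32.9% ± 3.36 in EGFP-positive cells and 42.9% ± 4.12 in EGFP-negative cells (SD, n = 2 each). The annotated exons of Pfkp span 13401 bp against 6675 bp for Pfkl and 3340 bp for Pfkm. Scaled by the longest coding transcript instead, a choice made after seeing these lengths, the Pfkp share was 67.7% in EGFP-positive cDC1, 94.0% in EGFP-negative cDC1, 48.0% in EGFP-positive cDC2 and 58.1% in EGFP-negative cDC2. The order of the 4 groups was the same on both scales, but whether Pfkp or Pfkl led in cDC2 depended on the length used: Pfkl made up 59.3% in EGFP-positive and 53.6% in EGFP-negative cDC2 by exon length, and 47.9% and 40.2% by coding transcript. For the plain share of counts, the 95% Clopper-Pearson interval of a library was at most 1.85 percentage points wide on each side, which covers counting error only and not the spread between cells, since reads copied by PCR and carrying no molecular identifier do not count molecules.

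**Figure D2:**
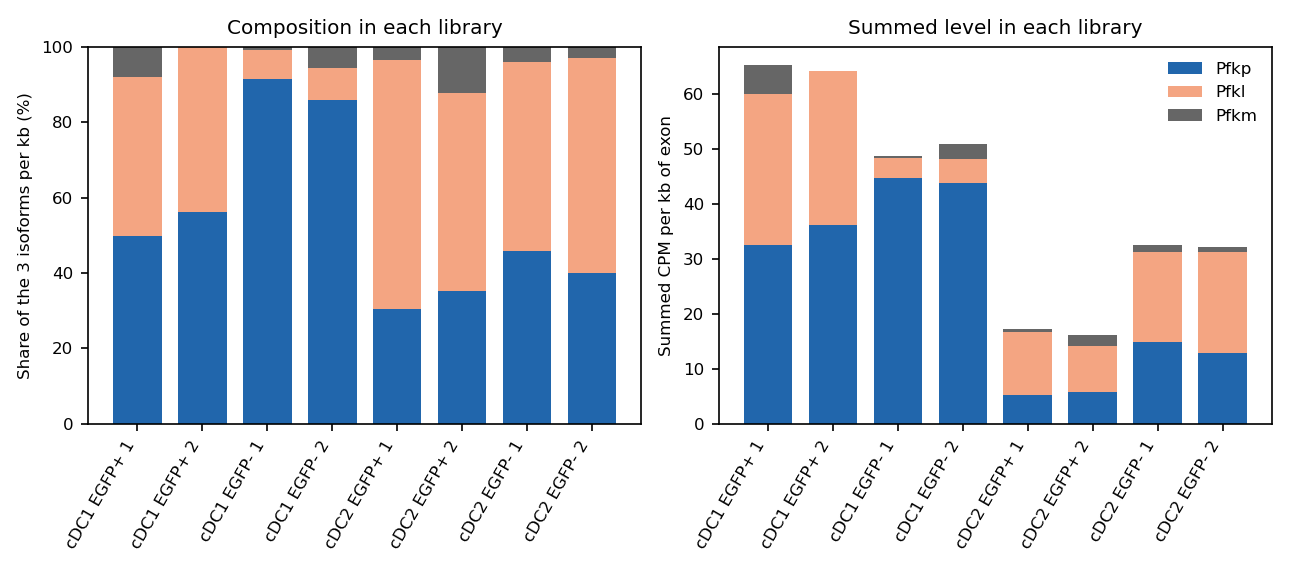
Left, share of Pfkp, Pfkl and Pfkm in their sum per kb of exon (percent) in each library; right, the same stacks as summed CPM per kb, both axes linear from 0. The Pfkl part is small in the EGFP-negative cDC1 libraries, and the summed level is lowest in EGFP-positive cDC2, at 17.3 and 16.2 CPM per kb.

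Of the regulators, Pfkfb4 (chr9:108991778-109032228, plus strand) differed most between groups. It had 41.2 and 54.3 CPM in EGFP-positive cDC1 (941 and 774 counts) and 0 counts in both EGFP-negative cDC1 libraries. In cDC2 it had 9.79 and 6.34 CPM in EGFP-positive cells and 9.27 and 7.21 CPM in EGFP-negative cells. The groups of cDC1 thus did not overlap, while those of cDC2 did. Against 3 counts over the EGFP-negative cDC1 group as a floor, 0.0700 CPM, Pfkfb4 was 682-fold higher in EGFP-positive than in EGFP-negative cDC1. The adjusted p was 0.0793 (edgeR quasi-likelihood test), short of the threshold of 0.05. This floor allows for counting error only. In EGFP-negative cDC1, 7.49% of genes with at least 100 counts in either replicate had 0 in the other. Counts of 0 therefore set no firm bound on the fold. Among EGFP-negative cells Pfkfb4 was 118-fold lower in cDC1 than in cDC2 against the same floor (adjusted p = 0.0581 in edgeR). That comparison rests on the same libraries at 0. Among EGFP-positive cells cDC1 lay above cDC2 by 2.57 ± 0.93 on the log2 scale (adjusted p = 0.262 in edgeR), and EGFP in cDC2 gave -0.03 ± 0.88 (adjusted p = 1). The difference between the EGFP effects of the subsets had an adjusted p of 0.154 in edgeR.

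The call for Pfkfb4 turned on the tool, the filter and single libraries. For EGFP in cDC1 the adjusted p was 2.44e-12 with DESeq2 and 0.0143 in edgeR with no low-count filter; it was 0.00711 without EGFP-positive cDC1 replicate 1 and 0.00724 without EGFP-positive cDC1 replicate 2, and at most 0.296 over all libraries left out in turn. Among EGFP-negative cells the corresponding values were 7.23e-08 with DESeq2, 0.0213 with no filter in edgeR, 0.00705 without EGFP-positive cDC1 replicate 1 and 0.0165 without replicate 2, and at most 0.271. The interaction gave 1.07e-09 with DESeq2, 0.0404 with no filter in edgeR, 0.0123 without EGFP-positive cDC1 replicate 1 and 0.0128 without replicate 2, and at most 0.856; among EGFP-positive cells only DESeq2 passed, at 0.00354, against 0.129 to 0.73 with a library left out. A drop from at least 100 counts in both EGFP-positive cDC1 libraries to 0 in both EGFP-negative ones was seen for 23 of 4495 genes, or 0.512%. Pfkfb4 was one of these.

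Pfkfb3 (chr2:11471433-11554077, minus strand), the regulator with the strongest kinase, was higher in EGFP-positive cells on average in both subsets, but only in cDC2 did the libraries separate. It had 36.2 and 116 CPM in EGFP-positive cDC1 and 46.0 and 14.1 CPM in EGFP-negative cDC1, which overlap. In cDC2 it had 52.6 and 46.1 CPM in EGFP-positive cells and 15.5 and 12.6 CPM in EGFP-negative cells. The log2 fold change for EGFP was 1.82 ± 0.76 in cDC2 (edgeR unadjusted p = 0.0452, adjusted p = 1) and 1.34 ± 0.75 in cDC1 (adjusted p = 0.436). The effects of the subsets differed by -0.47 ± 1.04 (edgeR adjusted p = 0.978). In cDC2 the direction of Pfkfb3 was opposite to that of Pfkp and Pfkl, which were both lower in the EGFP-positive libraries.

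Pfkfb2 (chr1:130689182-130729253, minus strand), the form best known from heart, was near the limit of detection. It had 0 and 6.11 CPM in EGFP-positive cDC1, 0 in both EGFP-negative cDC1 libraries, 3.38 and 5.0 CPM in EGFP-positive cDC2 and 0.54 and 0.93 CPM in EGFP-negative cDC2. Its adjusted p in edgeR was 0.397 for EGFP in cDC1 and 1 for EGFP in cDC2. The mean of EGFP-positive cDC1 was 43.6 times the floor of 3 counts over the EGFP-negative group. That ratio rests on 87 counts of replicate 2 and is no bound, since replicate 1 had 0 like both EGFP-negative libraries. Its exons share 1262 bp with the predicted gene Gm29427 and 154 bp with Yod1, so these few counts are uncertain. The liver form Pfkfb1 was at 0 counts in 6 libraries and had 81 and 77 counts in one EGFP-negative cDC1 and one EGFP-negative cDC2 library. Per kb of exon, the regulators ranked Pfkfb3 (10.1 CPM per kb), Pfkfb4 (9.79) and Pfkfb2 (0.421) in EGFP-positive cDC1, where the replicate SD of Pfkfb3 was 7.49, so the first pair cannot be ranked. In EGFP-positive cDC2 the levels per kb were 6.53 for Pfkfb3, 1.65 for Pfkfb4 and 0.578 for Pfkfb2. The summed CPM of the 3 regulators was 77.4 and 177 in EGFP-positive cDC1 and 46.0 and 14.1 in EGFP-negative cDC1, and 65.8 and 57.4 in EGFP-positive cDC2 and 25.3 and 20.7 in EGFP-negative cDC2. Both EGFP-positive libraries of each subset lay above both EGFP-negative ones in this sum, which is not scaled by length. Single genes were higher in this way for 11.5% of all genes in cDC1 and 22.6% in cDC2. In cDC1 Pfkfb3 by itself overlapped, and the sum separated only with Pfkfb4 added.

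None of the 4 tested genes passed an adjusted p of 0.05 in edgeR in any of the 6 comparisons made. At an unadjusted p under 0.05 there was 1 of the 4 for EGFP in cDC1 (Pfkfb4), 1 for EGFP in cDC2 (Pfkfb3), 1 each for subset among EGFP-positive and EGFP-negative cells and for the interaction (Pfkfb4), and 0 for subset over both fractions. Of all 11394 genes, 0% passed the adjusted threshold for EGFP in cDC1 (12.7% at an unadjusted p under 0.05), 0% for EGFP in cDC2 (2.63% unadjusted), 0.228% for subset among EGFP-positive cells (15.9% unadjusted), 0.36% for subset among EGFP-negative cells (9.58% unadjusted), 0% for the interaction (10.4% unadjusted) and 1.32% for subset over both fractions (13.5% unadjusted). With DESeq2 the genes called numbered 1325 for EGFP in cDC1, 110 for EGFP in cDC2 and 714 for the interaction. Leaving out EGFP-positive cDC1 replicate 1 or replicate 2 left 763 or 1050 calls in edgeR for EGFP in cDC1. Over all libraries left out in turn, edgeR called 1 to 1273 genes for subset among EGFP-positive cells, 1 to 465 among EGFP-negative cells and 50 to 277 over both fractions, the most without an EGFP-positive cDC1 library in each.

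Libraries that do not overlap are common in groups of 2, so the counts of such members carry little. For EGFP in cDC1, 2 of the 6 members were higher in both EGFP-positive libraries (Pfkl, Pfkfb4) against 11.5% of all genes, and 1 was lower (Pfkp) against 24%. For EGFP in cDC2, Pfkfb2 and Pfkfb3 were higher against 22.6% of all genes, and Pfkp and Pfkl lower against 19.2%. In cDC1 set against cDC2, Pfkp, Pfkl and Pfkfb4 were higher among EGFP-positive cells, where 13.7% of all genes were higher and 33.2% lower. Among EGFP-negative cells Pfkp was higher and Pfkl, Pfkfb2 and Pfkfb4 lower, where 21.9% of all genes were higher and 26.5% lower. Since the choice of genes used Pfkp and Pfkl, nothing is read from these shares.

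EGFP-positive cDC1 replicates 1 and 2 had summed macrophage and monocyte markers of 523 and 13470 CPM, with Pfkl at 184 and 188 CPM and Pfkfb4 at 41.2 and 54.3 CPM. Replicate 1 had the lowest marker sum of all 8 libraries and Mertk, a defining macrophage gene, was at 0 in each cDC1 library. Between subsets the markers were highest in the cDC2 gate, where Pfkp was lowest, while Pfkl and Pfkm overlapped between the subsets. The part of other cells in these results was not tested. Stromal markers summed to 811 and 22.5 CPM in EGFP-positive cDC1 and to at most 182 CPM elsewhere, and their part was not tested either.

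**Figure D3:**
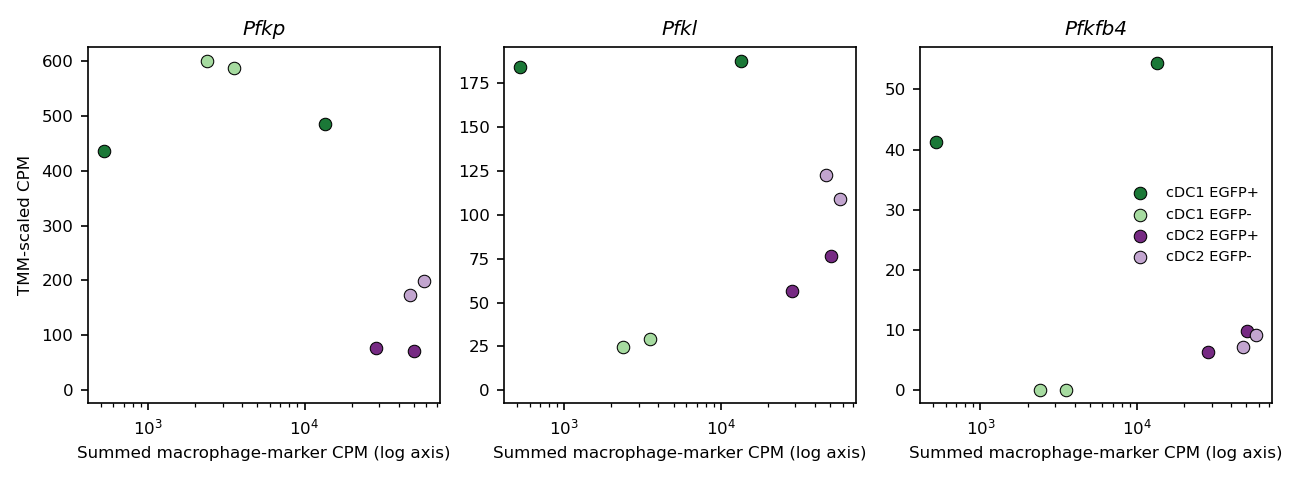
TMM-scaled CPM of Pfkp, Pfkl and Pfkfb4 (linear axes) against the summed CPM of 16 macrophage and monocyte markers (log axis), 1 point a library, coloured by group. The EGFP-positive cDC1 libraries sit at 523 and 13470 CPM of markers with nearly equal Pfkl, 184 and 188 CPM.

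Along the pathway, no gene before or after the phosphofructokinase step passed the adjusted threshold in edgeR for EGFP in cDC1. Of 12 tested genes from aldolase to lactate export, 0 were called and 7 had an unadjusted p under 0.05, against 12.7% of all genes. A positive log2 fold change was seen for 12 of the 12, with a median of 1.57 against -0.04 over all genes. The monocarboxylate carrier Slc16a3, which exports lactate, averaged 262 ± 95.1 CPM in EGFP-positive and 35.7 ± 4.23 CPM in EGFP-negative cDC1 (SD, n = 2 each; log2 fold change 2.88 ± 0.40, edgeR adjusted p = 0.0793). Triosephosphate isomerase Tpi1 averaged 782 ± 206 CPM against 180 ± 40.3 CPM (edgeR adjusted p = 0.0818), the aldolase Aldoa 1981 ± 625 CPM against 477 ± 4.50 CPM (adjusted p = 0.14) and the pyruvate kinase Pkm 2968 ± 655 CPM against 848 ± 127 CPM (adjusted p = 0.114), EGFP-positive cDC1 first in each. DESeq2 called 7 of these 12 genes higher, and edgeR called 4 or 6 of 13 without EGFP-positive cDC1 replicate 1 or 2. The enolase Eno1 was listed at 39 counts or fewer, beside its near-identical copy Eno1b, and its values are uncertain.

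Of 6 tested genes upstream of the step, 0 were called and 2 had an unadjusted p under 0.05, against 12.7% of all genes. Among these 6, 5 were positive, with a median log2 fold change of 1.33. The glucose transporter Slc2a1 averaged 267 ± 147 CPM in EGFP-positive and 41.3 ± 16.3 CPM in EGFP-negative cDC1 (SD, n = 2 each; 2.69 ± 0.49 on the log2 scale, edgeR adjusted p = 0.14). The hexokinase Hk1 averaged 39.98 ± 9.57 CPM in EGFP-positive and 7.09 ± 2.16 CPM in EGFP-negative cDC1 (edgeR adjusted p = 0.201). Hk2, the inducible hexokinase, went the other way, with 6.52 ± 0.986 CPM in EGFP-positive and 17.5 ± 8.58 CPM in EGFP-negative cDC1 (edgeR adjusted p = 0.41). Without EGFP-positive cDC1 replicate 2 the median of this list was -0.17, over 7 genes.

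In cDC2 most genes of this list had negative values. Of the 12 downstream genes, 0 were called and 6 had an unadjusted p under 0.05 in edgeR, against 2.63% of all genes. The log2 fold change for EGFP was negative for 11 of them, with a median of -0.77 against 0.08 over all genes. DESeq2 called 1 lower. Slc16a3 averaged 93.5 ± 23.1 CPM in EGFP-positive and 269 ± 33.1 CPM in EGFP-negative cDC2 (SD, n = 2 each; edgeR adjusted p = 1). Pkm averaged 1700 ± 200.4 CPM in EGFP-positive and 3593 ± 334 CPM in EGFP-negative cDC2 (edgeR adjusted p = 1). Hk2 had 59.1 ± 19.2 CPM in EGFP-positive and 23.6 ± 11.9 CPM in EGFP-negative cDC2 (edgeR adjusted p = 1), opposite to its direction in cDC1. Tested as an interaction, 12 of 12 downstream genes had a larger log2 fold change in cDC1 than in cDC2 (median difference 2.79 against -0.20 over all genes). Of these, 8 had an unadjusted p under 0.05, against 10.4% of all genes, and 0 passed the adjusted threshold in edgeR. Slc16a3 had the smallest p among them, with a difference of 4.40 ± 0.55 (edgeR adjusted p = 0.141).

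**Figure D4:**
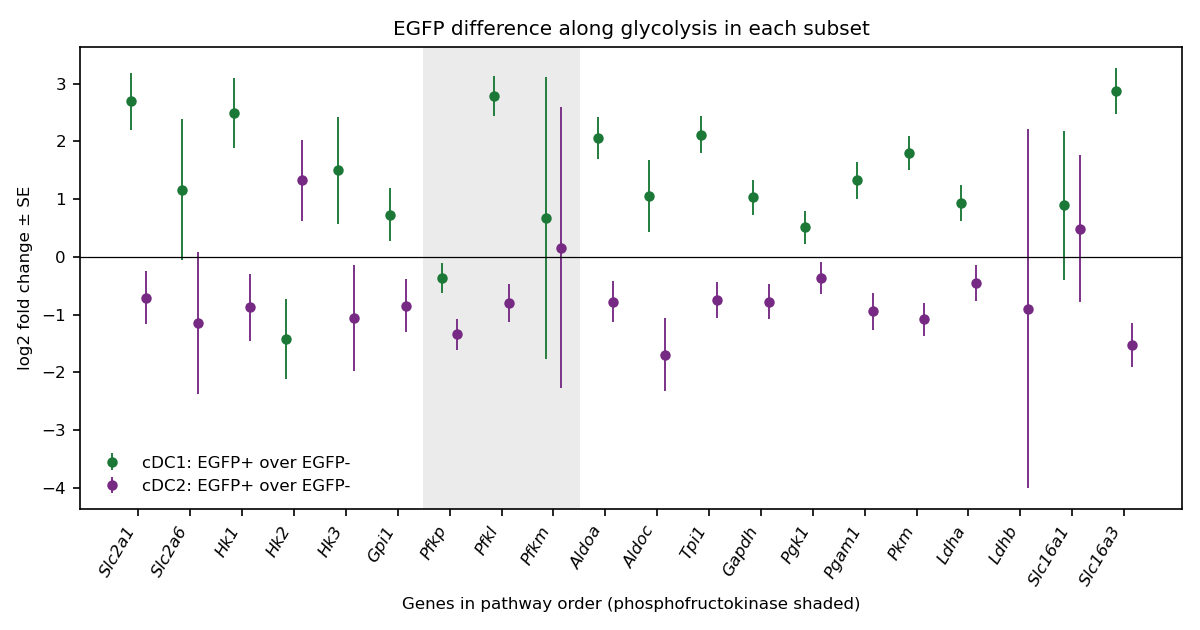
Log2 fold change ± SE (edgeR) of EGFP-positive over EGFP-negative cells in cDC1 and in cDC2 for genes in the order of glycolysis, with the phosphofructokinase isoforms shaded. Pfkl at 2.79 lies among the positive values of cDC1 and Pfkp at -0.37 below them; Eno1 is left out as uncertain and Ldhb in cDC1 because EGFP-negative cDC1 had 0 counts.

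Among EGFP-negative cells, 26.5% of all genes were lower in cDC1 than in cDC2 in all libraries, and 0.36% passed the test in either direction. Of the 12 downstream genes, 12 were lower in this way, and 3 of them passed. These were Tpi1, with 180 ± 40.3 CPM in cDC1 against 953 ± 6.31 CPM in cDC2 (edgeR adjusted p = 0.0439), Pkm, at 848 ± 127 CPM and 3593 ± 334 CPM (adjusted p = 0.0468), and Slc16a3, at 35.7 ± 4.23 CPM and 269 ± 33.1 CPM (adjusted p = 0.0457), with SD and n = 2 each and cDC1 first. Each of these calls was lost when any 1 EGFP-negative library was left out, at adjusted p up to 0.345, and with the replicate number as a block, at 0.101, 0.13 and 0.112 for Tpi1, Pkm and Slc16a3. The median log2 fold change of the list was -1.86 against -0.04 over all genes. Pfkl, with -2.10, lay near this median, and Pfkp, with 1.67, on the other side of 0. Among EGFP-positive cells 10 of the 12 were positive and 0 were called, with a median of 0.54 against -0.30 over all genes.

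Genes that oppose or tune the step gave no call. The gluconeogenic phosphatases Fbp1 and Fbp2, which reverse it, had 0 counts in every library. Of 9 tested genes that included subunits of AMP-activated kinase and the kinases Akt1, Akt2 and Rps6ka1, which can phosphorylate Pfkfb enzymes, 0 were called in edgeR in any of the 6 comparisons, and their median log2 fold changes for EGFP were -0.79 in cDC1 and 0.15 in cDC2. Tigar, a bisphosphatase that lowers fructose 2,6-bisphosphate, is listed under the older symbol 9630033F20Rik and had 0 to 109 counts.

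The pentose phosphate pathway draws on glucose 6-phosphate before the phosphofructokinase step. Of 7 tested genes, 0 were called for EGFP in either subset in edgeR, with median log2 fold changes of 0.04 in cDC1 and -0.54 in cDC2. For EGFP in cDC1, 4 were positive and 3 negative. In cDC2 both EGFP-positive libraries lay below both EGFP-negative ones for 19.2% of all genes and for 6 of these 7. That is the direction of Pfkp and Pfkl there. The transaldolase Taldo1 was the only gene of this list called anywhere. It had 820 ± 337 CPM in cDC1 and 258 ± 48.8 CPM in cDC2 over both fractions (SD, n = 4 each). Its log2 fold change was 1.65 ± 0.29 (edgeR adjusted p = 0.03, 0.0226 to 0.117 with a library left out). The dehydrogenase G6pdx, the entry enzyme, averaged 82.5 ± 14.4 CPM in EGFP-positive and 48.5 ± 16.7 CPM in EGFP-negative cDC1 and 30.2 ± 11.98 CPM in EGFP-positive and 76.5 ± 2.55 CPM in EGFP-negative cDC2 (SD, n = 2 each; edgeR adjusted p = 0.466 and 1).

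Of 15 tested genes for HIF-1 and its targets outside glycolysis, 0 were called for EGFP in cDC1, 13 had a positive log2 fold change and the median was 2.30 against -0.04 over all genes, or 2.43 without Egln3, which had 0 counts in every cDC1 library; DESeq2 called 4 higher and 1 lower. The growth factor gene Vegfa averaged 30.2 ± 14.9 CPM in EGFP-positive and 3.27 ± 1.99 CPM in EGFP-negative cDC1 (SD, n = 2 each; edgeR adjusted p = 0.14). The mitophagy gene Bnip3 averaged 202 ± 140.1 CPM in EGFP-positive and 22.9 ± 13.2 CPM in EGFP-negative cDC1 (edgeR adjusted p = 0.15). Mxi1 went the other way, with 0.0570 ± 0.0187 CPM in EGFP-positive and 9.88 ± 10.7 CPM in EGFP-negative cDC1 (edgeR adjusted p = 0.137). Without EGFP-positive cDC1 replicate 1 the median of the list was 0.68, and without replicate 2 it was 1.52. In cDC2 the median for EGFP was 0.03 with 0 calls in edgeR. Vegfa was lower in cDC1 than in cDC2 among EGFP-negative cells, with 3.27 ± 1.99 CPM in cDC1 and 75.7 ± 4.42 CPM in cDC2 (edgeR adjusted p = 0.0467, 0.00263 to 0.251 with a library left out, above 0.05 without any 1 of the EGFP-negative libraries or of the EGFP-positive cDC2 libraries).

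The genes whose pattern over the 8 libraries was most like that of Pfkp, among 5929 with a mean of at least 10 CPM, were Trpv2 (Pearson r 0.99 on log2 of CPM plus 1), Cd83 (0.97), Lsp1 (0.97), Ccnd3 (0.97) and Selplg (0.97). Cd83, a surface marker of mature dendritic cells, averaged 996 CPM in EGFP-positive and 1457 CPM in EGFP-negative cDC1 and 154 CPM in EGFP-positive and 286 CPM in EGFP-negative cDC2. The genes most like Pfkl were Rhbdf2 (0.97), Pfkfb4 (0.96), Wdr5 (0.95), Slc12a4 (0.95) and Ubxn6 (0.95). Rhbdf2, which encodes a rhomboid-like partner of the protease ADAM17, averaged 60.6 CPM in EGFP-positive and 2.96 CPM in EGFP-negative cDC1 and 20.9 CPM in EGFP-positive and 25.3 CPM in EGFP-negative cDC2. These likenesses are descriptions over 8 libraries that fall into 4 groups. Among the 6 members, the regulator closest to Pfkl was thus Pfkfb4, while Pfkfb3 had an r of 0.20 with Pfkl and 0.0021 with Pfkp.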

How the data were processed

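Sorted cells were reverse transcribed by the full-length cDNA method that the labels cite and sequenced as KAPA Hyper Prep libraries, per the labels' protocols, and each title gave its sample's group. The authors deposited one table of raw read counts per gene symbol with 8 columns, matched to samples by name. Trimmomatic 0.39, STAR 2.7.5c, Cufflinks 2.2.1 and the mm10 build are named in the submitters' processing notes; the read counter, the annotation and the strand setting were not given there. Counts were filtered with filterByExpr by group, scaled by TMM and tested with edgeR 4.0.16 in R 4.3.3 (glmQLFit, robust, and glmQLFTest, two-sided), with Benjamini-Hochberg adjustment over all 11394 genes tested and a threshold of 0.05. All 8 libraries entered 1 model with a mean per group, from which EGFP within each subset, subset within each fraction and the interaction were taken; an additive model gave subset over both fractions. The SE of a log2 fold change is its size divided by the square root of the F value. The common dispersion (1.28; biological coefficient of variation 1.13) meant that modest differences were seldom detectable. Replicates differed by more than sampling noise (chi-square over degrees of freedom 115 to 491). Folds against a group at 0 counts were taken against 3 counts over the group. Gene positions and exon lengths came from GENCODE M21 and upstream sequences from RefSeq. The members and the gene lists were chosen with earlier results of these data known. Up to 4 genes a list and comparison could be named, by lowest p among those averaging 5 CPM or more, and not all are described; likeness used genes of at least 10 CPM with an established symbol. Alternatives were RLE scaling, DESeq2 1.42.0, omission of the low-count filter, removal of Rn45s, the replicate number as a block, other gene lengths and leaving out each library. The fits were also run on simulated counts with a smaller dispersion than these data, so that run does not measure their power here.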

Additional observations from a re-analysis of the deposited data

Results flagged for a closer look

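The EGFP effect on Pfkl ran in opposite directions in the subsets. Both EGFP-positive cDC1 libraries (184 and 188 CPM) lay above both EGFP-negative ones (24.6 and 29.3 CPM), and both EGFP-positive cDC2 libraries (76.5 and 56.6 CPM) lay below both EGFP-negative ones (109 and 123 CPM). The log2 fold change in cDC1 exceeded that in cDC2 by 3.59 ± 0.47 (SE). The difference was not tested, because Pfkl was chosen for its pattern over these groups.

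Over the 4 cDC1 libraries, 1 library stood apart for Pfkfb2: EGFP-positive cDC1 replicate 2 had 87 counts and the other cDC1 libraries 0. The gap to the nearest library was thus 1 of the range, past the critical value of Dixon's test for 4 samples. With 0 in all the others this ratio is 1 whatever the count, so the test cannot judge this library. Every member was screened in each subset. The chance rate of about 1 in 20 is meant for 4 samples of 1 kind, whereas these libraries span both EGFP fractions.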

How the results depend on the processing

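The number of genes called depended on the tool and the libraries, and the cause was not tested. With DESeq2 it was 1325 for EGFP in cDC1, 110 for EGFP in cDC2, 1586 for subset among EGFP-positive cells, 838 for subset among EGFP-negative cells, 714 for the interaction and 1160 for subset over both fractions, against 0, 0, 26, 41, 0 and 150 in edgeR. Without the low-count filter edgeR called 57, 0, 153, 112, 29 and 236 in that order. RLE scaling and removal of Rn45s moved no count by more than 1.5 times; RLE scaling put the median log2 fold change of all genes at -0.20 in place of -0.30 for subset among EGFP-positive cells and at -0.06 in place of -0.20 for the interaction. Leaving out each library in turn gave 0 to 1050 calls for EGFP in cDC1 (763 without EGFP-positive cDC1 replicate 1 and 1050 without replicate 2), 0 for EGFP in cDC2, 1 to 1273 and 1 to 465 for subset among EGFP-positive and EGFP-negative cells, 0 to 668 for the interaction and 50 to 277 for subset over both fractions; a group left with 1 library took its spread from the others. The titles give the groups the same replicate numbers, with codes that also tie same-numbered libraries across groups, without saying what either marks. Deviations of same-numbered libraries correlated at -0.22 to 0.04. With the replicate number as a block the calls were 0 for subset among EGFP-positive cells, 3 among EGFP-negative cells and 82 over both fractions, and with the numbers of EGFP-positive cDC1 crossed, a choice made after seeing the correlations, 4 genes were called higher and 3 lower among EGFP-positive cells, 7 and 12 among EGFP-negative cells, 80 and 49 over both fractions, and 0 in the other 3 comparisons.

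The log2 fold changes of Pfkp and Pfkl kept their direction under every alternative in the comparisons of EGFP and of subset within a fraction; only Pfkl for subset over both fractions did not, at -1.01 to 0.37 with a library left out. Directions turned for low or uneven genes, only when a library was left out. Pfkm ranged from -9.75 to 2.55 for EGFP in cDC1, -0.98 to 0.69 for EGFP in cDC2, -9.39 to 2.18 and -1.35 to 1.31 for subset among EGFP-positive and EGFP-negative cells, -9.91 to 2.39 for the interaction and -1.01 to 1.17 over both fractions. Pfkfb2 ranged from 0 to 9.91 for EGFP in cDC1, -9.45 to 0.54 for subset among EGFP-positive cells and -2.49 to 7.42 for the interaction. Pfkfb3 ranged from -0.44 to 1.24 for subset among EGFP-positive cells and -1.54 to 0.62 for the interaction, and Pfkfb4 from -0.48 to 0.25 for EGFP in cDC2 and -6.68 to 0.99 over both fractions.

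With no length scaling the Pfkp share was 70.2% in EGFP-positive cDC1, 94.8% in EGFP-negative cDC1, 51.1% in EGFP-positive cDC2 and 60.8% in EGFP-negative cDC2; by coding transcript length it was 67.7%, 94.0%, 48.0% and 58.1%. With 1 library left out the shares by exon length were 49.7% to 56.3%, 85.8% to 91.5%, 30.5% to 35.3% and 40.004% to 45.8% in the same order.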
